A study of Homo sapiens with 4 samples.

Results

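The MYC and PVT1 locus lies on chromosome 8 in band 8q24.21. The window described runs from 127900000 to 129300000 on hg19, a length of 1.4 Mb, with the MYC gene body at 128748315 to 128753680 and the PVT1 gene body at 128806779 to 129113499. Its members are all TEAD4 ChIP-seq peaks whose midpoint falls in the window, so they were chosen by position and not by any measured value. The window held 64 of the 39477 peaks deposited for MKN28 and 34 of the 11540 peaks deposited for SNU216, or 98 of 51017 in all, and no further filter removed any of them. MKN28 and SNU216 are human gastric cancer cell lines, for which the labels name no treatment and no genetic change. Public registers of cell line identity list MKN28 as derived from another gastric line. Both were cross-linked with formaldehyde and sonicated, and each gave 1 TEAD4 library (Abnova antibody H00007004-M01) and 1 input library without antibody. As the names of the deposited lists give it, the authors called the peaks of a line against its own input, so a peak is a stretch where TEAD4 ChIP reads exceeded input reads beyond their threshold. No line had a replicate. No difference between the lines can therefore be tested, and the 95% intervals given below cover counting error only and treat neighbouring peaks as independent. How deeply each library was sequenced is unknown, as no read counts came with the lists. The inputs were not analysed as data of their own here, so the DNA copy number of the window was not measured.

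TEAD4 is a DNA-binding factor of the TEAD family that recruits YAP and TAZ, the co-activators held in check by Hippo signalling, and it binds mostly at enhancers away from gene starts. MYC encodes a transcription factor that drives growth and division and is often amplified in stomach tumours. It is controlled by enhancers spread over gene-poor DNA on both of its sides. PVT1 is a long non-coding RNA gene just downstream of MYC, transcribed in the same direction, and it is commonly co-amplified with it. In RefSeq annotation of GRCh38.p14, used here for gene order only, the nearest genes before MYC are the non-coding CASC11 and, farther out, the retrogene POU5F1B and the non-coding CCAT2, CASC8, CASC21 and CCAT1. No gene is annotated between MYC and PVT1. The microRNA genes MIR1204, MIR1205, MIR1206 and MIR1207 lie within PVT1 and MIR1208 follows it.

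Averaged over the window, TEAD4 peaks were denser than on the rest of chromosome 8 in both lines. They were not evenly spread, with gaps of up to 159 kb in MKN28 and 291 kb in SNU216. MKN28 had 4.57 peaks per 100 kb in the window against 1.203 on the rest of chromosome 8, a ratio of 3.80 (95% interval 2.93 to 4.85). SNU216 had 2.43 peaks per 100 kb against 0.415, a ratio of 5.85 (4.05 to 8.17). Against the rest of band 8q24 the ratios were smaller, at 2.38 (1.83 to 3.04) in MKN28 and 3.52 (2.44 to 4.92) in SNU216. The ratio to the rest of the chromosome grew when weaker peaks were left out. When only peaks scoring 100 or more were kept it was 5.51 in MKN28 and 9.84 in SNU216, and with the MKN28 list limited to as many peaks as SNU216 has it was 6.19 in MKN28. When the genome was divided into 2199 tiles of the same length, 11 tiles held more than 64 MKN28 peaks and 0 tiles held more than 34 SNU216 peaks (1 held as many), with medians of 16 and 5 among tiles that held any. The window was defined with the locus in view and does not line up with these tiles. Peaks covered 4.20% of the window in MKN28 and 1.59% in SNU216.

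The window held a larger share of strong peaks than the whole lists. Strength was read only within a list, from the score that the authors' peak caller gave each peak. Among the top 10% of its own list were 17 of the 64 MKN28 peaks (26.6%, 16.3 to 39.1) and 9 of the 34 SNU216 peaks (26.5%, 12.9 to 44.4), where the whole lists have 10.0% by construction. In the rest of band 8q24 the top 10% made up 17.0% of MKN28 peaks and 15.4% of SNU216 peaks, and both shares lay inside the intervals of the window. That class began at a score of 422 in MKN28 and 304 in SNU216. Scores in the window ran from 53.9 to 3170.2 in MKN28, with a median of 159.5 (quartiles 91.2 and 469), and from 51.1 to 1766 in SNU216, with a median of 122 (89.9 and 325). Whole-list medians were 99.8 in MKN28 and 84.7 in SNU216. Of the 797 MKN28 peaks with a score of 1000 or more, 6 were in this window, 4 of them inside PVT1. Of the 86 such SNU216 peaks, 1 was in the window, downstream of PVT1. These were 0.753% of such MKN28 peaks and 1.16% of such SNU216 peaks. The window held 0.162% of the whole MKN28 list and 0.295% of the whole SNU216 list, and the SNU216 value rests on 1 peak.

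**Figure D1:**
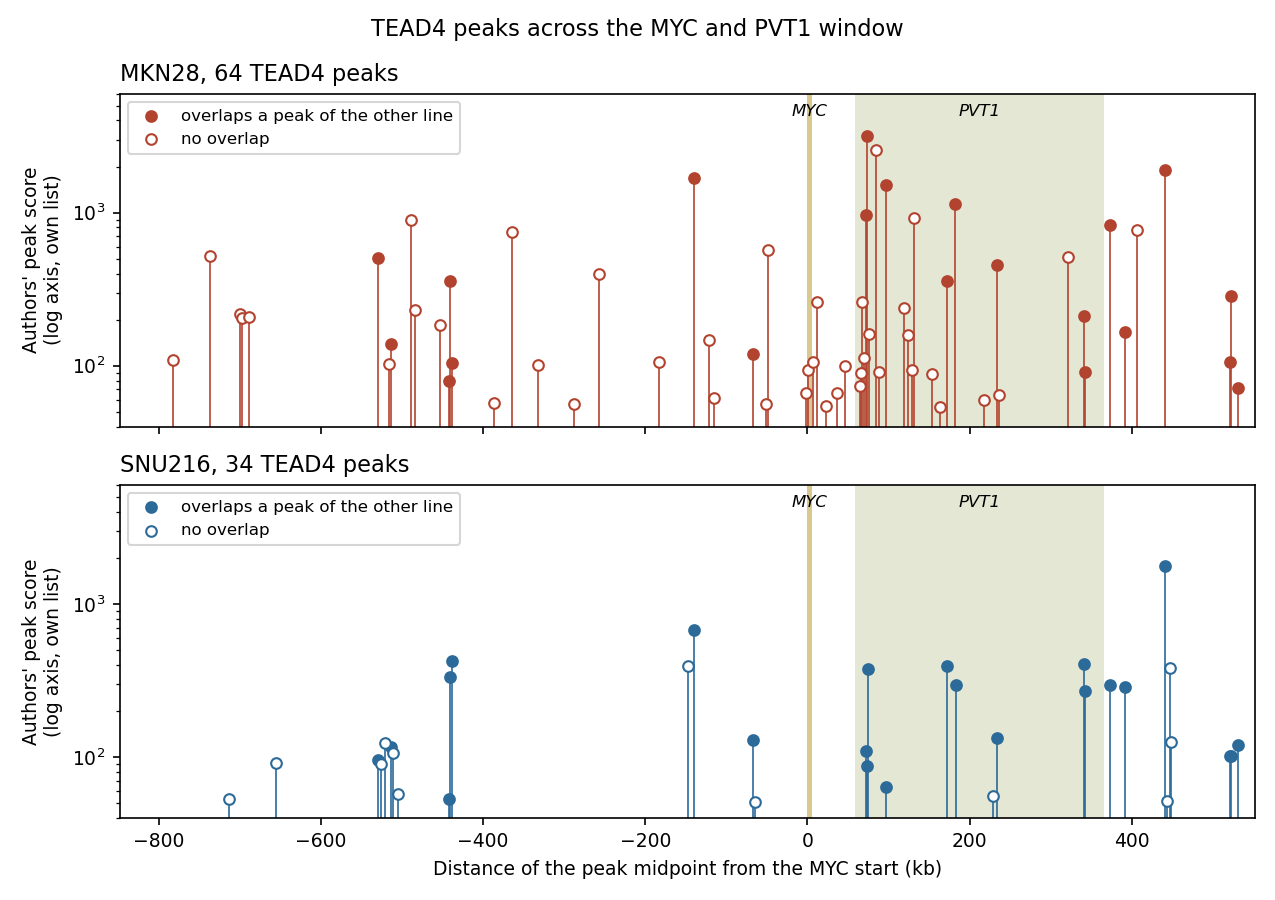
Authors' peak score (log axis, each list on its own scale) against the distance of each peak midpoint from the MYC start in kb, for the 64 MKN28 peaks (top) and the 34 SNU216 peaks (bottom); filled points overlap a peak of the other line, open points do not, and shading marks the MYC and PVT1 bodies. MKN28 peaks stand close together from MYC into the first part of PVT1. SNU216 has no peak for 137 kb around MYC, a span that ends 13.4 kb into PVT1, and has 4 peaks in the first 50 kb of PVT1.

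MYC itself carried a low-scoring TEAD4 peak in MKN28 and no peak in SNU216. The MKN28 peak inside the gene, at 128748884 to 128749691, began 569 bp after the MYC start and scored 94.1, rank 20861 of 39477. A second MKN28 peak ended 1598 bp before the start, at 128746218 to 128746717, with a score of 66.5. Both lay in the lower-scoring part of the MKN28 list, below its median of 99.8. Whether the first covers an exon or an intron was not resolved, since gene bodies were used without exons. In SNU216 the nearest peak before the MYC start ended 64.8 kb away (128683012 to 128683536, score 51.1), and the nearest after it began 71.9 kb away (128820198 to 128820663, score 109).

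The span between those SNU216 peaks, 128683537 to 128820197, was 137 kb long and held no SNU216 peak. It contained 13 MKN28 peaks, of which 3 were upstream of MYC, 1 in its body, 5 between the genes and 4 in the start of PVT1. Their scores ran from 54.4 to 569 with a median of 94.1, and 1 of the 13 was in the top 10% of the MKN28 list. That peak, at 128699068 to 128701036, lay 48.3 kb before the MYC start, was 1969 bp wide and ranked 2513. When only peaks scoring 100 or more were kept, the span grew to 139 kb and held 5 MKN28 peaks, and 3 remained with the MKN28 list limited to the length of the SNU216 list. The span was noticed on these data, and most of its MKN28 peaks were weak ones of the longer list.

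Between MYC and PVT1, a stretch of 53.1 kb, MKN28 had 5 peaks and SNU216 had 0. The strongest, at 128760156 to 128760790, scored 262 and ranked 7269, and none was in the top 10% of the MKN28 list. The next were a peak of 1050 bp at 128755097 to 128756146, which began shortly after the MYC end and scored 106, and one at 128794528 to 128795276, 11.5 kb before the PVT1 start, which scored 98.9. With the MYC body added, 0 of 6 peaks were from SNU216, which allows a SNU216 share of up to 50%. Over the whole genome SNU216 supplied 22.6% of the peaks of both lists, so at this number of peaks the absence of SNU216 calls was within counting error. A stretch with no peak fell short of the calling threshold in that library, and binding below it is not recorded.

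Inside PVT1 the MKN28 peaks were numerous and ran from the weakest to the strongest of the window. The gene body holds 21.9% of the window and had 24 of the 64 MKN28 peaks (37.5%, 25.7 to 50.5) and 10 of the 34 SNU216 peaks (29.4%, 15.1 to 47.5). That is 7.82 peaks per 100 kb in MKN28 (5.01 to 11.6) and 3.26 in SNU216 (1.56 to 6.0). Peaks of both lines were denser in the first 50 kb after the PVT1 start, which held 10 from MKN28 and 4 from SNU216, a density of 20 and 8 per 100 kb. In the remaining 257 kb there were 14 and 6, a density of 5.45 and 2.34. The cut at 50 kb was not among the stretches planned for the window, and the contrast was not tested. No peak of either line covered the PVT1 start. The nearest began 6.31 kb after it in MKN28 (score 73.8) and 13.4 kb after it in SNU216 (score 109).

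The 2 strongest MKN28 peaks of the locus stood in that first stretch of PVT1. The next strongest lay outside the gene, downstream of PVT1 (score 1890.4) and upstream of MYC (score 1685). The peak at 128821303 to 128823068, with its midpoint 15.4 kb after the PVT1 start and 73.9 kb after the MYC start, had the highest score of the whole MKN28 list, 3170.2. Scores bunch at 3100 and above, where MKN28 had 16 peaks and SNU216 had 1, so the rank within these 16 was not read. This MKN28 peak of 1766 bp spanned 2 SNU216 peaks, at 128821472 to 128822230 (score 87.1, rank 5607 of 11540) and at 128822268 to 128822934 (score 373, rank 817). Just before it, the MKN28 peak at 128820031 to 128820769 scored 962 (rank 864), and its SNU216 partner scored 109 (rank 4439). The MKN28 peak at 128844973 to 128845930 scored 1519 (rank 256), while its SNU216 partner at 128845261 to 128845866 scored 63.7 (rank 8168). Each of these stretches was called in both lines, near the top of the MKN28 list and, for all but 1 of the 4 SNU216 peaks, outside the top 10% of the SNU216 list. The MKN28 peak at 128831431 to 128833409, 25.6 kb after the PVT1 start, scored 2575 (rank 34) and had no SNU216 counterpart.

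Farther into PVT1 the sites called in both lines were spread out. The widest MKN28 peak of the window, 2461 bp at 128929703 to 128932163, scored 1145 (rank 591), and its SNU216 partner of 1095 bp at 128930650 to 128931744 scored 295 (rank 1211). At 128919509 to 128920665 the MKN28 peak scored 356 (rank 5006) and its SNU216 partner, with a start 2 bp away, scored 391 (rank 750). The strongest SNU216 peak inside PVT1 was nearer to the end of the gene, at 129088793 to 129089584, with a score of 402 (rank 718). It lay 24.3 kb before the PVT1 end, and its MKN28 partner scored 212 (rank 9235). Another pair followed within 1 kb, scoring 91.4 in MKN28 and 268 in SNU216. The MKN28 peak at 128879091 to 128879873, with a score of 917 (rank 977), had no SNU216 partner. Of the 24 MKN28 peaks inside PVT1, 8 were in the top 10% of the list, and of the 10 SNU216 peaks, 3 were.

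**Figure D2:**
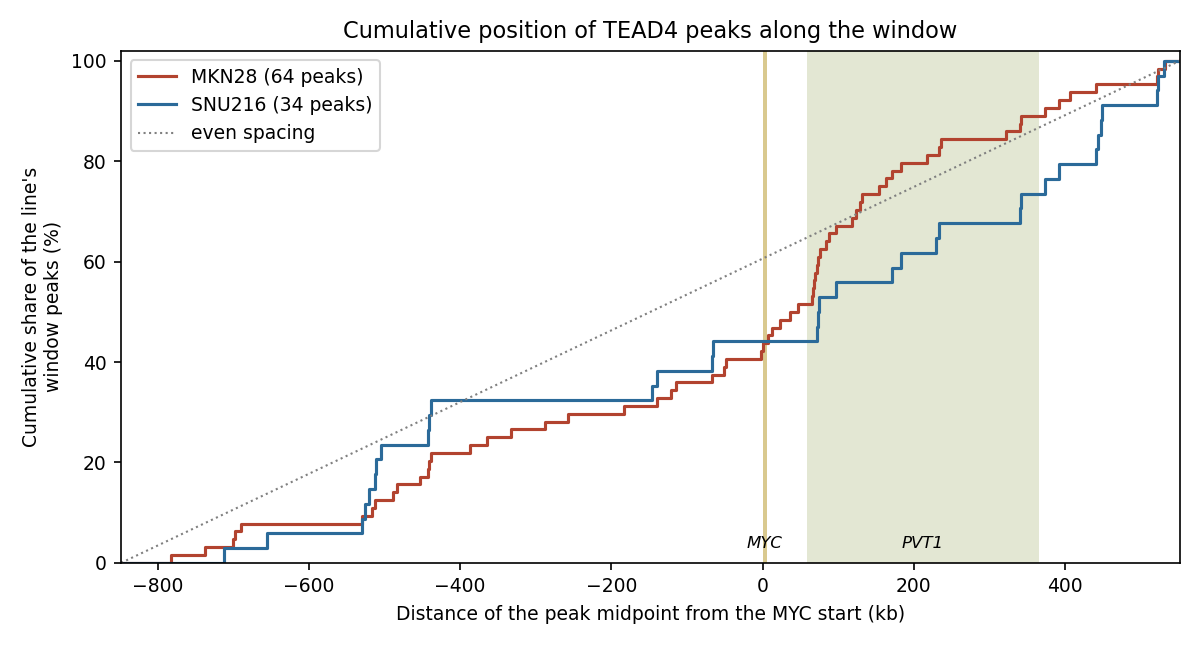
Cumulative share of each line's window peaks (in %) against the distance from the MYC start in kb, for MKN28 (64 peaks) and SNU216 (34 peaks), with even spacing dotted. The MKN28 curve climbs steeply at the start of PVT1, and the SNU216 curve is flat across MYC and across the 291 kb that hold 0 SNU216 peaks farther upstream.

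Upstream of MYC the peaks were scattered over 848 kb, 60.6% of the window. MKN28 had 27 peaks there (3.18 per 100 kb, 2.10 to 4.63) and SNU216 had 15 (1.77, 0.99 to 2.92). The strongest site of this stretch belonged to both lines, with the midpoints of its peaks at the same base. It lay 139.8 kb before the MYC start, at 128607998 to 128609060 in MKN28 (score 1685, rank 180) and at 128608093 to 128608965 in SNU216 (score 673, rank 254). A SNU216 peak at 128601256 to 128602027, 147 kb before the start, scored 393 (rank 747) and was the strongest SNU216 peak of the window without an MKN28 peak. The next strongest MKN28 peaks upstream, at 128259185 to 128260182 (score 891, rank 1028) and at 128383014 to 128384050 (score 752, rank 1468), had no SNU216 partner.

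From 442 to 438 kb before MYC, 3 consecutive peaks within 5 kb were called in both lines. In MKN28 they scored 79.5, 359 and 103, and in SNU216 the same 3 sites scored 53.0, 334 and 421, so a different member of the trio led in each line. The last of them, at 128309678 to 128310220 in SNU216, was the second strongest SNU216 peak upstream of MYC (rank 658), and its MKN28 partner ranked 19003. From there SNU216 had no peak for 291 kb, the longest gap in its window, where MKN28 had 6 peaks with scores from 56.5 to 752. The longest MKN28 gap, 159 kb, was farther out and held 1 SNU216 peak, which scored 91.3.

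Downstream of PVT1, over the last 187 kb, the counts of the lines were close. MKN28 had 7 peaks and SNU216 had 9, a SNU216 share of 56.2% (29.9 to 80.2) of the peaks in that stretch, whose interval lies above the genome-wide 22.6%. In the whole window the share was 34.7% (25.4 to 45.0), and on the rest of chromosome 8 it was 25.7%. The stretch holds the strongest SNU216 peak of the window, at 129188376 to 129189671, which scored 1766, ranked 13 of 11540 and was also the widest SNU216 peak of the window at 1296 bp. Its MKN28 partner, at 129188488 to 129189861, scored 1890.4 and ranked 125. Both lay 441 kb after the MYC start and about 76 kb after the PVT1 end. The site just after the PVT1 end, at 129121049 to 129121699 in MKN28 (score 825, rank 1217), had a SNU216 partner with a score of 297 (rank 1207). Of the 3 strongest MKN28 peaks in this stretch, the one at 129153929 to 129154918 (score 767) had no SNU216 partner. SNU216 had 3 peaks of its own here, led by 129195232 to 129195912 with a score of 379 (rank 791) and 129196461 to 129196901 with a score of 124.

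**Figure D3:**
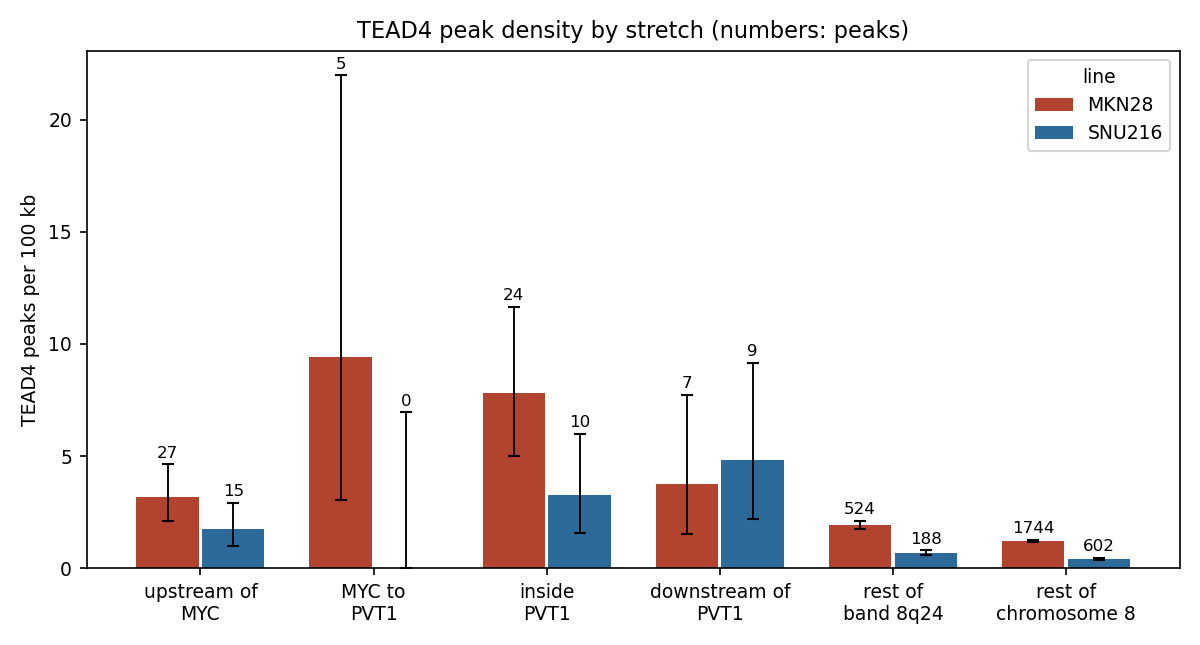
TEAD4 peaks per 100 kb by stretch for MKN28 (red) and SNU216 (blue); bars start at 0, error bars are exact 95% Poisson intervals and the numbers above them are peaks. The MKN28 bar is higher upstream of MYC (27 and 15 peaks), between the genes (5 and 0) and inside PVT1 (24 and 10). The SNU216 bar is higher downstream of PVT1 (7 and 9), and the short MYC body (1 and 0) is left out. Bars are not scaled to the length of the lists. SNU216 supplied 35.7% of the peaks upstream of MYC (21.6 to 52.0) and 29.4% inside PVT1 (15.1 to 47.5). Its genome-wide share of 22.6% lies inside both intervals.

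Overlap between the lines was counted over the window and along it, and differences between stretches were not tested. In the window 21 of 64 MKN28 peaks (32.8%, 21.6 to 45.7) shared at least 1 bp with a SNU216 peak, where the whole MKN28 list has 17.1%, a share below that interval. Of the SNU216 peaks, 22 of 34 (64.7%, 46.5 to 80.3) shared at least 1 bp with an MKN28 peak, where the whole SNU216 list has 59.3%, a share inside that interval. In the rest of band 8q24 the shares were 18.7% of MKN28 peaks and 53.2% of SNU216 peaks. In the 1.4 Mb just after the window 31.8% of MKN28 peaks overlapped, close to the share in the window. Against an MKN28 list shortened to the length of the SNU216 list, 41.2% of the SNU216 window peaks overlapped (24.6 to 59.3), and 36.1% of all SNU216 peaks did. Among MKN28 peaks the share was 7 of 27 upstream of MYC (25.9%, 11.1 to 46.3), 0 of 6 in the MYC body and up to PVT1, 8 of 24 inside PVT1 (33.3%, 15.6 to 55.3) and 6 of 7 downstream of PVT1 (85.7%, 42.1 to 99.6). Among SNU216 peaks it was 7 of 15 upstream (46.7%, 21.3 to 73.4), 9 of 10 inside PVT1 (90%, 55.5 to 99.7) and 6 of 9 downstream (66.7%, 29.9 to 92.5). The downstream interval of MKN28 lay above the share of its whole list, and the intervals of the other stretches in both lines held their whole-list shares.

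**Figure D4:**
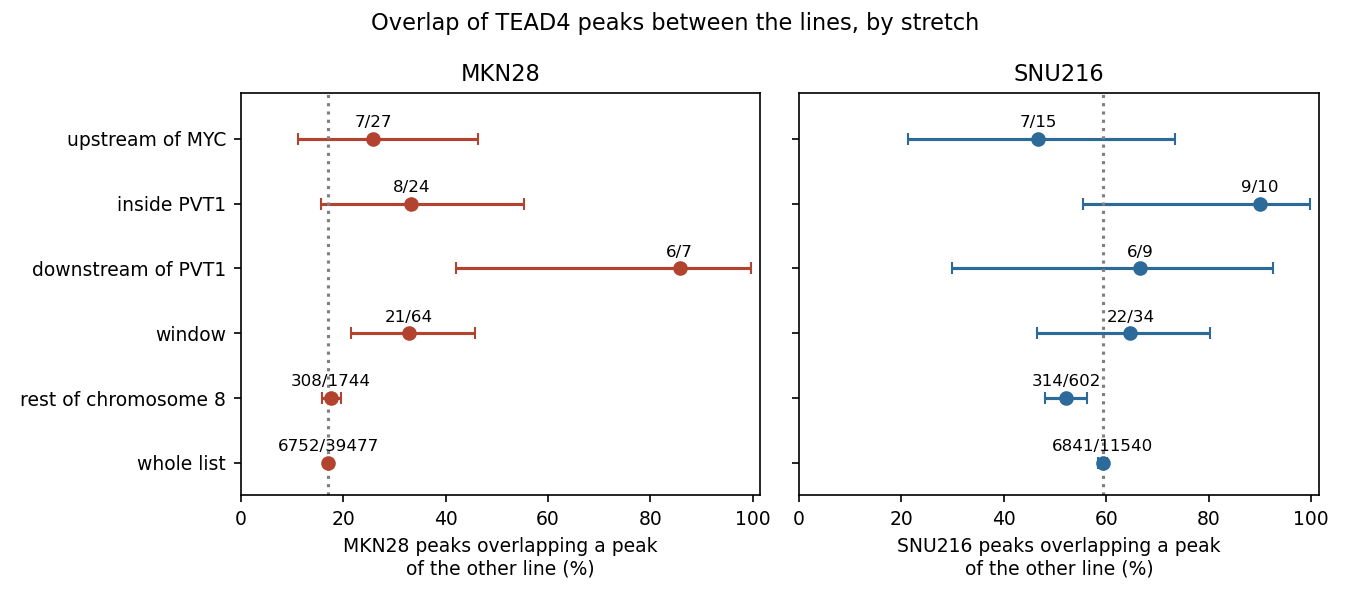
Share of peaks (in %) that overlap a peak of the other line by at least 1 bp, for MKN28 (left) and SNU216 (right); points carry exact 95% Clopper-Pearson intervals, labels give counts and the dotted line marks the whole list. The MKN28 counts are 7 of 27 upstream of MYC, 8 of 24 inside PVT1 and 6 of 7 downstream of PVT1, with the stretch from MYC up to PVT1 (0 of 6) not drawn, and the SNU216 point inside PVT1 is at 9 of 10.

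Overlap was also counted by strength. Of the 17 MKN28 window peaks in the top 10% of the list, 9 had a SNU216 partner (52.9%, 27.8 to 77.0), against 50.2% of all such MKN28 peaks. Among the 47 weaker MKN28 peaks 12 had one (25.5%, 13.9 to 40.3), against 13.4% in the list. Of the 9 SNU216 peaks in the top 10%, 7 overlapped (77.8%, 40 to 97.2), against 91.3% in the list, and of the 25 others 15 did (60%, 38.7 to 78.9), against 55.7%. Overlapping peaks had a median score of 356 in MKN28, against 109 for the other MKN28 peaks, and of 201 in SNU216, against 90.4 for the other SNU216 peaks.

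Merged into sites, the peaks of both lines gave 76 places with TEAD4 called in at least 1 line. Of these, 21 were called in both (27.6%, 18.0 to 39.1), 43 only in MKN28 and 12 only in SNU216. Sites were merged in the window only, so no genome-wide share stands beside the site counts. They are not read as a trait of the locus. Upstream of MYC 7 of 35 sites were called in both lines, inside PVT1 8 of 25 and downstream of PVT1 6 of 10. Partners share at least 1 bp, so their midpoints lie near each other by construction, and 18 of the 22 SNU216 peaks were narrower than their partner. The 22 SNU216 peaks with a partner had midpoints a median of 104 bp from it, at most 416 bp, and 14 of them lay wholly within the MKN28 peak. Of the 21 sites called in both lines, 3 were in the top 10% of both lists, 6 were so in MKN28 alone, 4 in SNU216 alone and 8 in neither.

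By median width, TEAD4 peaks of the locus were wider than those of the whole lists, as were those around it. In MKN28 20 of 64 were at least 1 kb wide (31.2%, 20.2 to 44.1), where the whole list has 4.05%, and in SNU216 3 of 34 were (8.82%, 1.86 to 23.7), where the whole list has 1.40%. In the rest of band 8q24 the share was 17.6% in MKN28, below the interval of the window, and 2.13% in SNU216, inside it. In the 1.4 Mb just before the window 7 of 31 MKN28 peaks were this wide (22.6%), inside the MKN28 interval of the window. In the 1.4 Mb just after it 3 of 22 were (13.6%), below that interval. Of the SNU216 peaks, 0 of 9 before the window and 0 of 16 after it were this wide. The median width was 810.0 bp in MKN28 and 606.5 bp in SNU216, against 525 and 408 bp in the whole lists. Because stronger peaks are wider, each width was also set against the typical width at that score, as the ratio to the median of similarly ranked peaks of its list. The median of this ratio was 1.39 in MKN28 (quartiles 1.17 and 1.71) and 1.32 in SNU216 (1.09 and 1.55). It was 1.29 in MKN28 and 1.18 in SNU216 for the rest of band 8q24, and 1.06 and 1.07 for the rest of chromosome 8. Within the window the MKN28 median was 1.54 inside PVT1, 1.33 upstream of MYC and 1.26 downstream of PVT1, and it was 1.45 for the 5 peaks between the genes and 1.61 for the 1 peak in the MYC body. In SNU216 it was 1.32 inside PVT1, 1.33 upstream of MYC and 1.29 downstream of PVT1. Weak MKN28 peaks could be very wide, such as the peak 94.99 kb after the PVT1 start, which was 1295 bp wide at a score of 88.2.

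**Figure D5:**
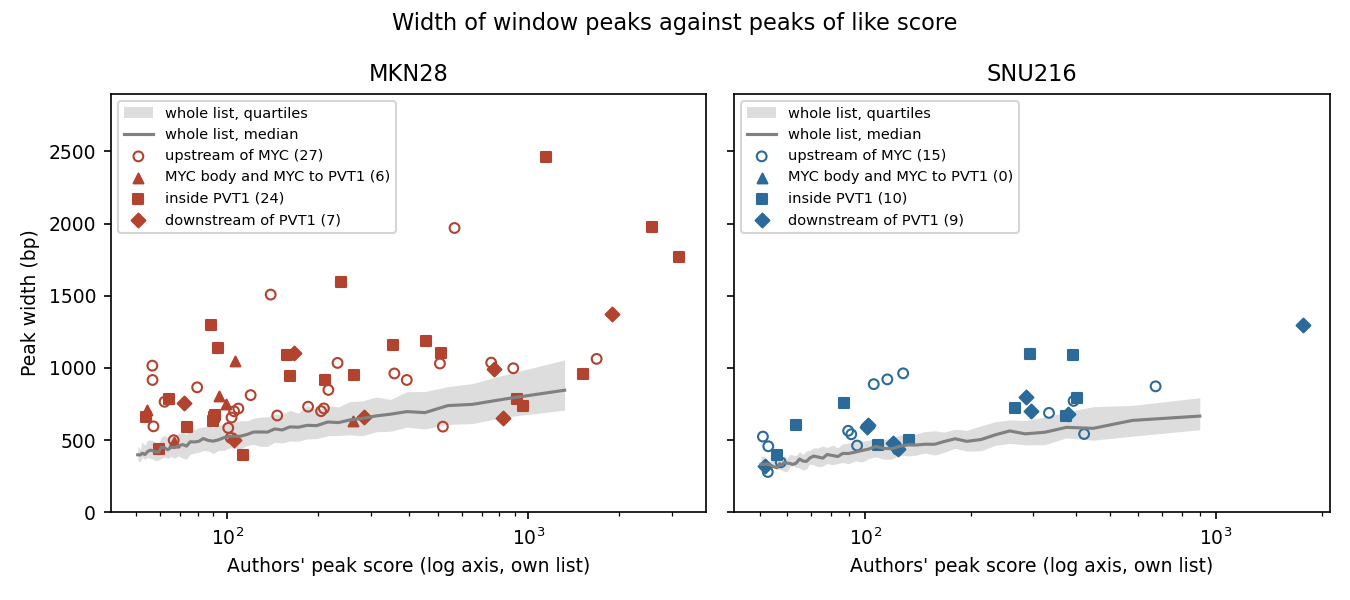
Peak width in bp against the authors' peak score (log axis) for window peaks of MKN28 (left) and SNU216 (right), by stretch, over the median and quartiles of the full list, taken in 50 score-ranked groups. Most window peaks sit above the grey line, with median ratios of 1.39 in MKN28 and 1.32 in SNU216.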

How the data were processed

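TEAD4 ChIP-seq was done in MKN28 and SNU216, with 1 ChIP and 1 input library per line. The authors deposited 1 peak list per ChIP library, with positions and a score per peak and no header. Per the submitters' processing notes, the tools were MACS, Bowtie2 2.0.0 and CASAVA 1.8 and the build was hg19, with no settings given. The scale of the deposited score is not given in the sources used here. All deposited scores are 50 or more, so weaker sites are unseen. A score of this kind can rise with depth, so it was ranked within a list only. Depth is unknown.

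Starts were converted to 1-based positions. Window and gene bodies are hg19 positions given with the choice of the locus. Bands came from circlize 0.4.16. No hg19 sequence or exon annotation was used, and gene order came from RefSeq on GRCh38.p14. Overlap meant at least 1 shared bp. Shares carry exact 95% Clopper-Pearson intervals and counts exact 95% Poisson intervals. For the SNU216 share of 0 of 6 peaks a limit of 3 counts was given beside the exact one. Similarly ranked meant 1 of 50 groups by score rank.

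Peaks named were those in the top 5% of a list with a partner, the 5 strongest per list, the 3 strongest per stretch, the 3 strongest without a partner, the widest, and those nearest to MYC and PVT1. Other peaks were named after their values were seen. The members and this rule were chosen with earlier results of these data known. Intervals came from scipy 1.17.1 and tables from pandas 2.3.3 under Python 3.11.15, and the overlap, stretch and width steps were checked on simulated data. Alternatives are given at the end.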

Additional observations from a re-analysis of the deposited data

How the results depend on the processing

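Of 38 values recomputed under other settings, 30 stayed within their main interval or within 1.5 times their main count. These 30 include all values for any overlap with the window and for PVT1 extended upstream by 5 kb. Those settings left each value as it was, so they say little on stability. With the MKN28 list limited to its strongest peaks, as many as SNU216 has, the window held 30 MKN28 peaks in place of 64, 41.2% of SNU216 peaks overlapped in place of 64.7%, and the MKN28 density ratio to the rest of chromosome 8 was 6.19 in place of 3.80. A shorter list gives fewer peaks and overlaps by construction. With midpoints within 200 bp as the overlap rule, which asks for more, 44.1% of SNU216 peaks overlapped. Keeping only peaks that scored 100 or more moved the density ratios to 5.51 in MKN28 and 9.84 in SNU216, and the cause was not tested. The MKN28 peaks in the SNU216-free span around MYC, 13 in all, became 5 at that score and 3 with the shortened list. The span, and these settings of it, were chosen after seeing the data. Shares of peaks inside PVT1 kept within their intervals under each alternative run. With 1 library a line, leaving out a replicate was not possible. No paired analysis was possible because the lines have no replicate numbers to pair. Unknown depth limits every statement on peaks seen in 1 list.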

Other observations

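The flanks of the locus, each 1.4 Mb long, were set beside it after its values were seen. Before the window there were 31 MKN28 and 9 SNU216 peaks, and after it 22 and 16, against 64 and 34 within it. The SNU216 share of peaks was 22.5% (95% interval 10.8 to 38.5) before the window and 42.1% (26.3 to 59.2) after it, next to 56.2% downstream of PVT1. Of the MKN28 peaks, 4 of 31 (12.9%, 3.63 to 29.8) overlapped a SNU216 peak before the window and 7 of 22 (31.8%, 13.9 to 54.9) after it. The share was 32.8% in the window and 17.1% in the whole MKN28 list. The strongest peaks scored 2724 in MKN28 and 737 in SNU216 before the window, and 2713 in MKN28 and 1258 in SNU216 after it. MKN28 peaks were wide for their score in both flanks, with median ratios of 1.37 before and 1.24 after the window, and SNU216 peaks had 1.18 and 1.17.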
